A study of Homo sapiens with 6 samples.

Results

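*PART1* is a long non-coding RNA gene whose 5′ end lies inside the 5′ end of *PDE4D*, on the opposite strand of chromosome 5, and *DEPDC1B* is the next protein-coding gene beyond it. The 6 genes described here are *PART1*, its neighbours *PDE4D* and *DEPDC1B*, and the other genes of the PDE4 family, *PDE4A*, *PDE4B* and *PDE4C*. They were chosen by symbol out of the 60651 genes in the count tables, starting from *PART1* because its level had fallen in the libraries labelled Tet in an earlier look at the same data. In those libraries *PART1* stood at 2.52 ± 0.604 CPM (counts scaled to library size by TMM) against 11.4 ± 1.18 CPM in the libraries labelled EtOH (SD, n = 3 each). *PDE4D* did not follow it over its exons as a whole, and neither *PDE4D*, *DEPDC1B* nor *PDE4B* passed the test. Counts on 4 small annotated genes inside introns at the 5′ part of *PDE4D* were together 4.27-fold lower in Tet, beside 4.52-fold for *PART1*. They lay 27.0 to 455 kb from the *PART1* start, and none passed the test alone. These genes were looked at after the values of *PART1* and *PDE4D* had been seen. Counts on 4 small genes in the rest of *PDE4D* overlapped between the groups.

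The data were 6 libraries of ribosome-depleted total RNA from neuroblastoma cells, 3 labelled EtOH (tagged as control) and 3 labelled Tet (tagged as induction), at 5 days. The sample titles name IMR575 cells, which the study used with an inducible knockdown of *MYCN*, and a tag calls the groups control and induction of a knockdown, whereas the protocol text describes SK-N-SH cells, kept as single clones under antibiotic selection, that carry a tetracycline repressor system and switch *MYCN* on when tetracycline is added. Which of these cell models was sequenced cannot be told apart from the labels, so EtOH and Tet below mean only the libraries so labelled. *MYCN* itself, the gene both models target, stood at 158, 256 and 156 CPM in EtOH and at 196, 199.9 and 145 CPM in Tet. The groups overlapped (log2 fold change -0.07, SE 0.23, edgeR adjusted p = 0.956), so the level of *MYCN* RNA does not check the labels in either direction.

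Libraries held 27933378 to 40498065 counts on genes, and 3 counts, the limit that a count of 0 allows, came to 0.0741 to 0.107 CPM. On the first principal component, which held 44.7% of the variance, EtOH replicate 2 and Tet replicate 2 lay together at one end, so results on the tested members, the PDE4 sums and shares, the G2 and M mean and the small genes within *PDE4D* are also given without both. Noradrenergic neuroblastoma transcription factors such as *HAND2* and *GATA3* were present. *GATA2*, a factor of the same list, was low, at a mean of 0.217 TPM (a level per exon length, scaled to the library) in EtOH and 0.682 TPM in Tet. The catecholamine enzymes *TH* and *DBH*, also markers of that identity, stood at or near 0. The 10 noradrenergic markers summed to 561 to 608 TPM in EtOH and to 625 to 747 TPM in Tet, and the 8 mesenchymal markers to 90.8 to 164 TPM and 101 to 184 TPM. Most of the mesenchymal sum came from *TWIST1* (mean 72.1 TPM in EtOH and 103 TPM in Tet) and *PRRX1* (29.7 and 13.7 TPM). In the same list *COL1A2* stood at 0 and *DCN* at 0.0194 and 0.0245 TPM. The summed level of 5 epithelial markers was 0.666 to 1.16 TPM in EtOH and 1.81 to 2.47 TPM in Tet, with *KRT19* at 0, and that of 5 blood markers was at most 0.664 TPM, with *CD3E* and *HBB* at 0. That of 4 endothelial markers was at most 0.175 TPM. Fewer cells of a kind and less RNA per cell cannot be told apart in such samples, and the part of any shift in these markers in the results below was not tested.

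Phosphodiesterases of the PDE4 family break down cyclic AMP (cAMP), the second messenger that adenylyl cyclases make and that protein kinase A reads. Each PDE4 gene makes long and short forms from separate starts spread over a large gene, and the forms differ in their N-terminal ends, which tether the enzyme to particular places in the cell. *PDE4A*, *PDE4B* and *PDE4D* are all found in brain. *PART1* was named as a prostate transcript under androgen control and has no known protein product. *DEPDC1B* carries a DEP domain, is made around the G2 and M phases of the cell cycle, and links the loss of adhesion to entry into mitosis.

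*PART1* (ENSG00000152931.9) spanned chr5:60487713-60548813 on the plus strand of GRCh38, and *PDE4D* (ENSG00000113448.19) spanned chr5:58969038-60522120 on the minus strand. *DEPDC1B* (ENSG00000035499.13) lay on the minus strand at chr5:60596912-60700190, 48.1 kb beyond the end of *PART1*. The exons of *PART1* and *PDE4D* shared 227 bases, which was 1.79% of the *PART1* exon bases and 1.40% of those of *PDE4D*. These lay in 2 stretches, 157 bases at chr5:60487942-60488098 and 70 bases at chr5:60522051-60522120. *PART1* and *DEPDC1B* shared no exon base. With 3 short genes inside *PART1* included (ENSG00000273701, ENSG00000275634 and ENSG00000276233), 6.33% of the *PART1* exon bases were shared with some other gene, and those 3 genes held 36.8 counts in all over the 6 libraries. A read on a shared base was split evenly between the genes, and strand was not used by the settings in the file headers.

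In GENCODE v44, whose coordinates for *PART1*, *PDE4D* and *DEPDC1B* were those of the count tables, 5 of the 27 annotated *PDE4D* transcripts started between bases 60488063 and 60488098. The 12 annotated *PART1* transcripts started between bases 60487713 and 60488207 and ran the other way, so the 5′ ends of *PART1* and of these *PDE4D* transcripts overlapped head to head. Of the 5 *PDE4D* transcripts, 1 (PDE4D-208, protein coding) reached the shared 3′ end of *PDE4D*. The transcript marked as representative, PDE4D-203, started at base 59893726, 594 kb away from the *PART1* start in the *PDE4D* direction.

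Sequences at these starts are shown because the starts of *PART1* and *PDE4D* overlap. Each window is 300 bases of GRCh38, 5′ to 3′ on the strand of its gene. The *PART1* window is chr5:60487682-60487981 (plus strand), the *PDE4D* distal window is chr5:60488099-60488398 (minus strand, just before the 5 overlapping *PDE4D* starts), the *PDE4D* proximal window is chr5:59893677-59893976 (minus strand, at the representative start) and the *DEPDC1B* window is chr5:60700117-60700416 (minus strand). The *PART1*, *PDE4D* proximal and *DEPDC1B* windows come from RefSeq promoters and the *PDE4D* distal window from the genome sequence. The distal window lies wholly before its *PDE4D* starts, whereas each RefSeq window takes in an annotated start of its gene, so their placement differs. Capitals mark matches, on either strand, to CACGTG (the E-box bound by MYC proteins), TGACGTCA (the full cAMP response element), TTTGAA (the CHR element of cell cycle genes) or CCAAT (the CCAAT box); none of the marked matches overlap.
PART1 promoter: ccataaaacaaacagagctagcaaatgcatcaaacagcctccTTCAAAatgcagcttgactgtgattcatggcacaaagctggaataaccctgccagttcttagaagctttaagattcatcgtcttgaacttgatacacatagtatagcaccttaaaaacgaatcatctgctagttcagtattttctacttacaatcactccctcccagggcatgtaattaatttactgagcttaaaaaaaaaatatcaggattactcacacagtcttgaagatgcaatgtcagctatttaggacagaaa
PDE4D distal promoter: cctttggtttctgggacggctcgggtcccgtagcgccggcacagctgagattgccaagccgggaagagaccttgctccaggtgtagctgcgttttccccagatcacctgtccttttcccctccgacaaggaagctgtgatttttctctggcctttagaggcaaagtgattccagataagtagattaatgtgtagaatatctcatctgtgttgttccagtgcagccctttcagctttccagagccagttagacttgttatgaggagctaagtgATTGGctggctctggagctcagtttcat
PDE4D proximal promoter: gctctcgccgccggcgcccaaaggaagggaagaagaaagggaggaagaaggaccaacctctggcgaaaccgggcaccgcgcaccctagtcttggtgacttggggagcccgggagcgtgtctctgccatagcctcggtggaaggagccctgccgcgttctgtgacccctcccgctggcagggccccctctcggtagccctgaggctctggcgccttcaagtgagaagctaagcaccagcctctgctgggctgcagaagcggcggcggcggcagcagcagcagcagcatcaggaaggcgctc
DEPDC1B promoter: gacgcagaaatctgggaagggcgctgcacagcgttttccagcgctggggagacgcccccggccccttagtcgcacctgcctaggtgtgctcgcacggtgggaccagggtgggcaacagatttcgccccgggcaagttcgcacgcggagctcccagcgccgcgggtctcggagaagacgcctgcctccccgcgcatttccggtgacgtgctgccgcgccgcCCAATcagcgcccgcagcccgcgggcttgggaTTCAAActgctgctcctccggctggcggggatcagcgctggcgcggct
GC made up 37.3% of the *PART1* window, 50.7% of the *PDE4D* distal window, 66.7% of the *PDE4D* proximal window and 70.0% of the *DEPDC1B* window, against a median of 58.7% over 35116 RefSeq promoters of that length. CACGTG and TGACGTCA had 0 matches in each of the 4 windows, and 7.26% and 1.85% of all the promoters held them. TTTGAA matched once in the *PART1* window and once in the *DEPDC1B* window, and 15.2% of all promoters held it. CCAAT matched once in the *PDE4D* distal window and once in the *DEPDC1B* window, and 34.6% of all promoters held it. The bases between the *PART1* window and the *PDE4D* distal window, which hold the 5 overlapping *PDE4D* starts, were not searched. Most annotated *PART1* starts lie there or in the *PDE4D* distal window, and not in the *PART1* window. These are letters found in a window and not sites shown to be bound.

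Levels of the 6 genes were compared per length, in TPM over all exons. In EtOH, *DEPDC1B* stood highest at 44.1 ± 19.9 TPM, followed by *PDE4D* at 9.10 ± 1.12, *PDE4B* at 3.37 ± 0.203 and *PART1* at 2.50 ± 0.191 TPM (SD, n = 3). *PDE4A*, at 0.125 ± 0.0353 TPM, and *PDE4C*, at 0.0292 ± 0.0343 TPM, came last. In Tet the order was the same, with *DEPDC1B* at 26.6 ± 9.35, *PDE4D* at 10.1 ± 3.50, *PDE4B* at 2.65 ± 0.188, *PART1* at 0.524 ± 0.0922, *PDE4A* at 0.0367 ± 0.0313 and *PDE4C* at 0.0193 ± 0.0334 TPM. Neighbours in this order did not overlap between libraries of the same group, except *PDE4A* and *PDE4C* in Tet.

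**Figure D1:**
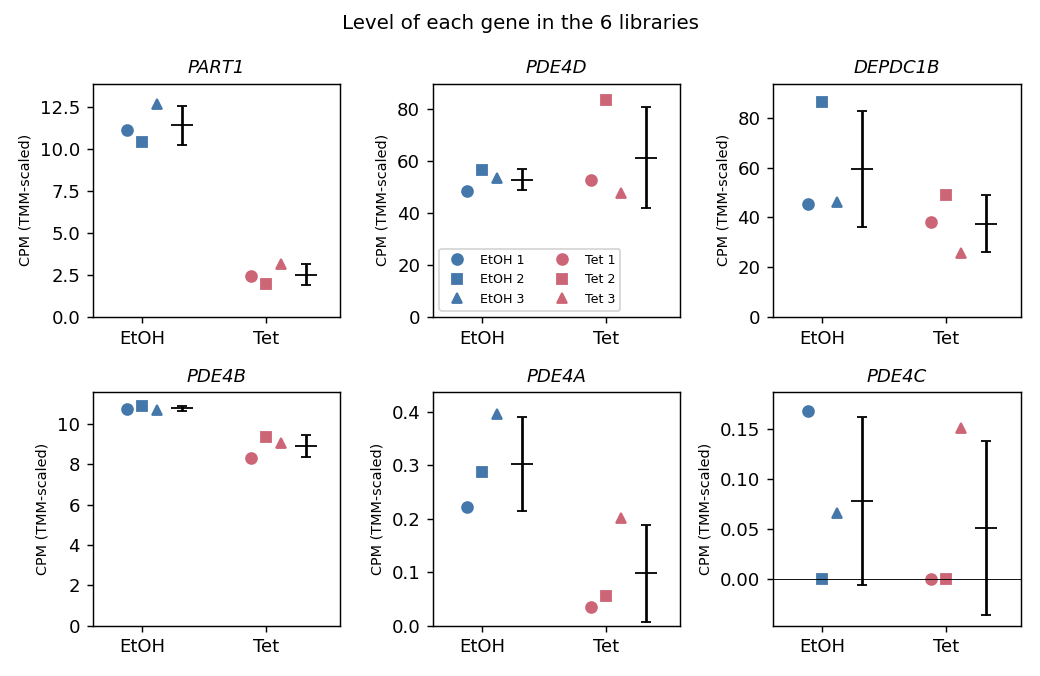
Level of each of the 6 genes (CPM, TMM-scaled, linear axes) in the libraries labelled EtOH (blue) and Tet (red), 1 point per library with the marker shape giving the replicate number, and the mean ± SD of 3 libraries beside the points. *PART1* sat at 10.4 to 12.7 CPM in EtOH and 1.97 to 3.17 CPM in Tet, whereas *PDE4D* and *DEPDC1B* overlapped between the groups.

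In the order of the replicate numbers 1 to 3, used throughout, *PART1* had 11.1, 10.4 and 12.7 CPM in EtOH, and 2.41, 1.97 and 3.17 CPM in Tet. Every EtOH library lay above every Tet library, with no value between 3.17 and 10.4 CPM. The level was 4.52-fold lower in Tet (log2 difference -2.18, SE 0.25). As *PART1* was chosen for this fall in the same data, the adjusted p-values given for it describe the fit and do not test the fall. Without the libraries numbered 2, the log2 fold change was -2.08. Of the 4 members that had enough counts for the fit, 1 (*PART1*) had an adjusted p under 0.05, where 0.236% of the 22443 genes fitted did (0.0891% lower and 0.147% higher in Tet). Nothing is read from that count, because the same comparison chose *PART1*. In 5 of the 6 fits that left out 1 library, all but the one without EtOH replicate 2, the adjusted p of *PART1* was not under 0.05 (edgeR, 0.106 to 0.217), with the log2 fold change between -2.38 and -2.02.

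*PDE4D*, whose exons overlap those of *PART1*, had 48.4, 56.4 and 53.6 CPM in EtOH and 52.6, 83.4 and 47.7 CPM in Tet. Tet replicate 2 was the highest of the 6 libraries and the other Tet libraries lay within or just below the EtOH range, so the groups overlapped. The log2 fold change was 0.21 (SE 0.22, 95% interval -0.29 to 0.72, edgeR adjusted p = 0.814). The lower end of that interval lay well above the log2 fold change of *PART1*. Without the libraries numbered 2, the *PDE4D* log2 fold change turned to -0.018, and without Tet replicate 2 alone to -0.071, neither past the threshold. For every 100 counts on *PDE4D* exons, *PART1* exons held 22.9, 18.4 and 23.6 counts in EtOH and 4.57, 2.38 and 6.64 counts in Tet.

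*PDE4D* is far longer than its exons, and 8 small annotated genes lie inside its introns away from *PART1*, none of which shares an exon base with *PDE4D*. They were looked at after the values of *PART1* and *PDE4D* had been seen, so they carry no test of their own as a group. Ribosome-depleted total RNA includes unspliced transcripts, and strand was not used in the counting, so counts on these small genes and counts on *PDE4D* introns cannot be told apart. Of the 8 genes, 4 lay 27.0 to 455 kb from the *PART1* start (*SETP21*, *RPL31P8*, *RNU6-806P* and ENSG00000248935), above base 59988704, where 6 to 9 annotated *PDE4D* transcripts span each of them. The other 4 (*MIR582*, *NDUFB4P2*, ENSG00000276214 and ENSG00000247345) lay 784 to 1424 kb away and were spanned by 8 to 11 *PDE4D* transcripts, of which 1 (PDE4D-208) started at *PART1*.

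The 4 small genes in the 5′ part of *PDE4D* held 67, 41 and 60 counts together in EtOH and 12, 14 and 17 counts in Tet. That was 1.77 ± 0.264 CPM in EtOH and 0.415 ± 0.0182 CPM in Tet (SD, n = 3), 4.27-fold lower in Tet, beside 4.52-fold for *PART1*, and 4.52-fold lower without the libraries numbered 2. Each of the 4 was lower in every Tet library than in every EtOH library, where 6.24% of the 40467 genes with any count were. The 4 small genes in the rest of *PDE4D* held 62, 32 and 68 counts together in EtOH and 31, 59 and 71 counts in Tet, or 1.71 ± 0.546 CPM and 1.51 ± 0.366 CPM. Their groups overlapped, with a ratio of EtOH to Tet of 1.13, or 1.38 without the libraries numbered 2.

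*SETP21*, a pseudogene of *SET* 27.0 kb from the *PART1* start, had 25, 17 and 13 counts in EtOH and 7, 3 and 7 in Tet. *RPL31P8*, a pseudogene of the ribosomal protein gene *RPL31*, had 18, 10 and 15 counts in EtOH and 2, 4 and 5 in Tet. The U6 small nuclear RNA copy *RNU6-806P* had 13, 9 and 13 counts in EtOH and 1, 4 and 3 in Tet. ENSG00000248935, the farthest of the 4 from *PART1*, had 11, 5 and 19 counts in EtOH and 2, 3 and 2 in Tet. Fitted with no filter on low counts, their log2 fold changes ran from -2.39 to -1.78 with unadjusted p of 0.00923 to 0.0135, and none passed after adjustment (edgeR adjusted p of 0.310 to 0.371, where 0.289% of genes were called lower). Among the 40467 genes in that fit, 3.92% were lower with an unadjusted p under 0.05. The parent genes, from which reads could stray to the pseudogenes, had log2 fold changes of 0.13 for *SET* (edgeR adjusted p = 0.896) and -0.37 for *RPL31* (edgeR adjusted p = 0.426).

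In the rest of *PDE4D*, the microRNA gene *MIR582* had 7, 7 and 6 counts in EtOH and 5 in each Tet library. *NDUFB4P2* had 25, 10 and 29 counts in EtOH and 10, 20 and 19 in Tet. ENSG00000276214 had 26, 8 and 22 counts in EtOH and 6, 12 and 38 in Tet. ENSG00000247345 had 4, 7 and 11 counts in EtOH and 10, 22 and 9 in Tet. *MIR582* alone of these 4 did not overlap between the groups, and the log2 fold changes of the 4 with no filter ran from -0.54 to 0.72, with adjusted p of 0.784 or more (edgeR).

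**Figure D2:**
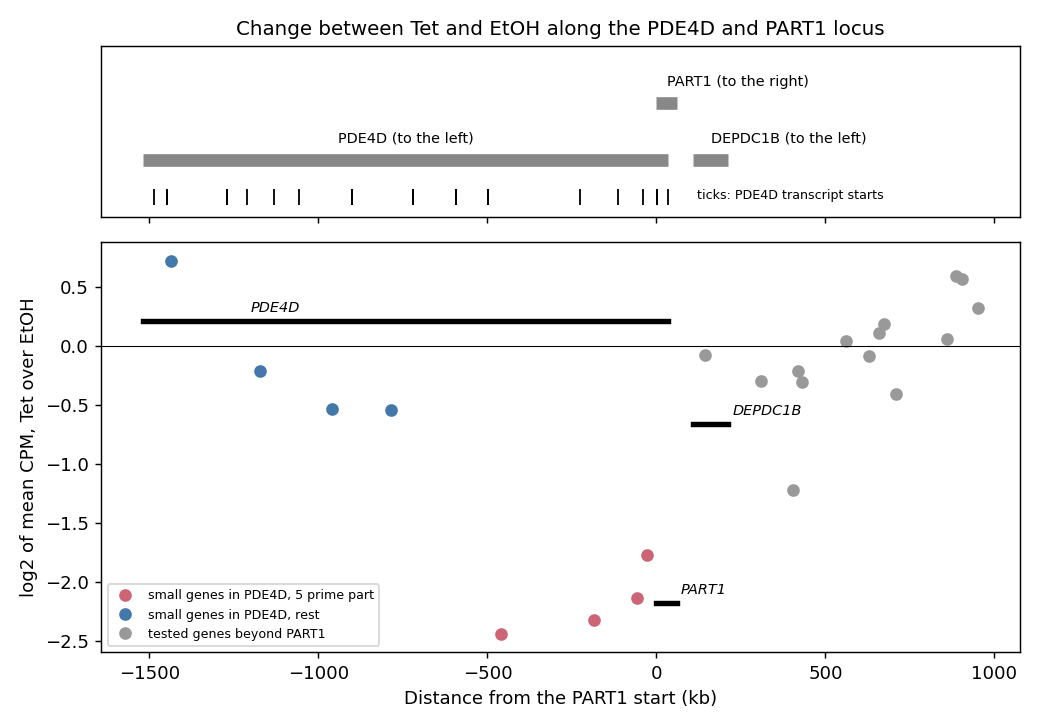
Log2 ratio of the mean CPM (Tet over EtOH) against distance in kb from the *PART1* start, for small genes within *PDE4D* introns (red, 5′ part; blue, rest), for tested genes beyond *PART1* (grey) and, as black bars over their spans, for *PART1*, *PDE4D* and *DEPDC1B*; the upper strip shows the 3 genes, the direction each is read in and the annotated *PDE4D* starts. The 4 red points lie near the *PART1* bar and below the others, and the grey points lie above them, with *GNL3LP1* the lowest of the grey ones.

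**Figure D3:**
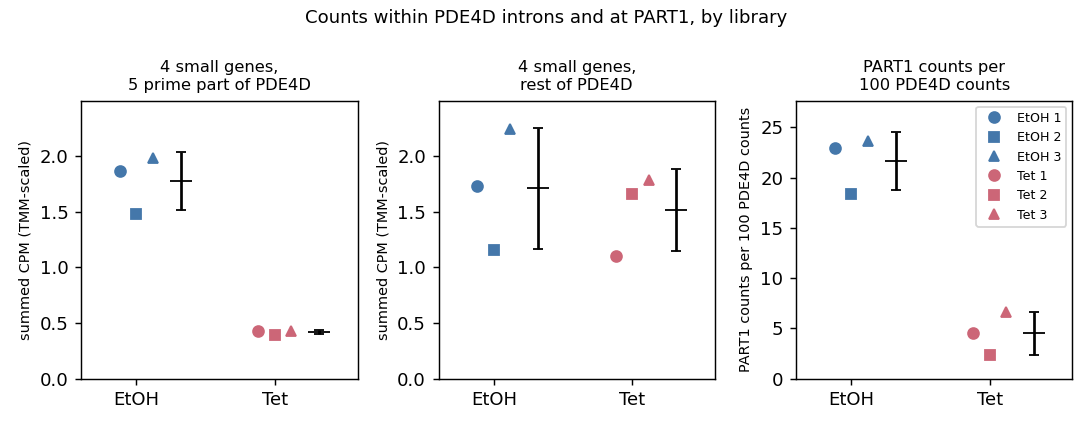
Summed CPM of the 4 small genes in the 5′ part of *PDE4D* (left), of the 4 in the rest of *PDE4D* (middle), and *PART1* counts per 100 *PDE4D* counts (right), 1 point per library with the mean ± SD of 3 libraries. In the left panel EtOH was 1.77 ± 0.264 CPM and Tet 0.415 ± 0.0182 CPM, and the groups in the middle panel overlap.

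Within 1 Mb of *PART1* the tables held 26 genes other than the members, of which 17 had enough counts to test. None passed the test (0 of 17, against 0.236% of all genes fitted), 3 of 17 had an unadjusted p under 0.05, all lower in Tet (10.8% of all genes fitted had one, in either direction), and the median log2 fold change was -0.08, against -0.01 over all genes. The 3 were *SETP21* and *RPL31P8*, described above, and *GNL3LP1* (log2 fold change -1.22, SE 0.47, edgeR adjusted p = 0.400), a pseudogene within the span of *ERCC8*. *ERCC8*, a DNA repair gene, differed by -0.21, its antisense gene *ERCC8-AS1* by -0.30, the fatty acid elongase *ELOVL7* by -0.29 and *NDUFAF2*, an assembly factor of respiratory complex I, by 0.05 on the log2 scale. *ZSWIM6* (0.33), *SMIM15* (0.19), *SMIM15-AS1* (-0.38), *CAB39P1* (-0.06), *NDUFB4P2* (-0.52), *RPL3P6* (0.56), ENSG00000250461 (0.60), ENSG00000251682 (0.07), ENSG00000276945 (0.11) and ENSG00000279985 (-0.08) made up the rest, all with an edgeR adjusted p of 0.531 or more. Among these, *SETP21* and *RPL31P8* came nearest to *PART1*.

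*DEPDC1B* had 45.4, 86.3 and 46.3 CPM in EtOH and 38.0, 48.9 and 25.7 CPM in Tet. EtOH replicate 2 stood far above the other 5 libraries, and Tet replicate 2 lay above the other EtOH libraries, so the groups overlapped. The log2 fold change was -0.66 (SE 0.31, 95% interval -1.37 to 0.05, edgeR adjusted p = 0.509). It was -0.28 without EtOH replicate 2, -0.90 without Tet replicate 2 and -0.52 without both, never past the threshold.

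*DEPDC1B* was also set beside 24 genes of the G2 and M phases. None of the 24 passed the test. An unadjusted p under 0.05 was reached by 7, all lower in Tet. Of all genes fitted, 10.8% did so in either direction and 1108 of 22443 did so lower in Tet. The groups did not overlap for 7, again lower in Tet, against 17.5% of all genes in either direction and 8.29% lower in Tet. All 24 had a negative log2 fold change, with a median of -0.43, against 11374 of 22443 genes overall. The topoisomerase *TOP2A* (-0.26), the kinesin *CENPE* (-0.42) and the kinetochore protein *CENPF* (-0.26) had the highest levels in the list, and *AURKA*, a mitotic kinase named after its value was seen, stood at -0.72 (SE 0.16, edgeR adjusted p = 0.131). The mean log2 CPM of the 24 genes was 6.33 ± 0.271 in EtOH and 5.91 ± 0.219 in Tet (exact permutation p = 0.1, two-sided, the smallest that 3 against 3 can give). Relative to that mean, *DEPDC1B* stood at -0.66, -0.21 and -0.64 on the log2 scale in EtOH and at -0.52, -0.55 and -1.10 in Tet (exact permutation p = 0.6, two-sided). Without the libraries numbered 2, the G2 and M mean was 6.17 in EtOH and 5.78 in Tet, and *DEPDC1B* relative to it was -0.65 and -0.81 (2 libraries a group, no test). Among the EtOH libraries replicate 2 had the highest G2 and M level and the highest *DEPDC1B* level, and the same held for replicate 2 among the Tet libraries.

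**Figure D4:**
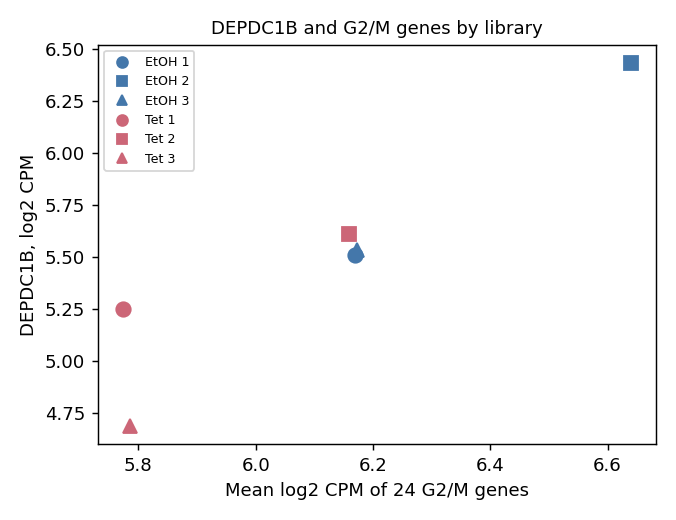
*DEPDC1B* (log2 CPM) against the mean log2 CPM of 24 G2 and M phase genes, 1 point per library, EtOH in blue and Tet in red, with marker shapes giving the replicate number. EtOH replicate 2 lies at the top right (6.64 and 6.43), and Tet replicate 2 falls beside EtOH replicates 1 and 3.

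*PDE4B* (ENSG00000184588.18, chr1:65792514-66374579, plus strand) had 10.8, 10.9 and 10.7 CPM in EtOH and 8.28, 9.33 and 9.04 CPM in Tet. The 3 EtOH libraries were close to each other and all lay above the 3 Tet libraries. The difference was small and did not pass the test (log2 fold change -0.28, SE 0.18, 95% interval -0.69 to 0.14, edgeR adjusted p = 0.667), and the log2 value was -0.30 without the libraries numbered 2. *PDE4A* (ENSG00000065989.16, chr19:10416773-10469630, plus strand) had 8, 8 and 12 counts in EtOH and 1, 2 and 8 counts in Tet, too few for the fit. The lowest EtOH count equalled that of Tet replicate 3. Its CPM did not overlap between the groups only through library size (0.223 in EtOH replicate 1 against 0.201 in Tet replicate 3). With no filter *PDE4A* differed by -1.54 on the log2 scale (SE 0.85, edgeR adjusted p = 0.677). *PDE4C* (ENSG00000105650.22, chr19:18208652-18248200, minus strand) had 5.83, 0 and 1.5 counts in EtOH and 0, 0 and 6.17 in Tet, and 70.8% of its exon bases were shared with other genes, so its counts are uncertain and no difference was detectable at this depth. Besides *PART1*, which was chosen for its fall, 2 members did not overlap between the groups and were lower in Tet: *PDE4A*, which was not fitted (6.24% of the 40467 genes with any count were lower in Tet without overlap), and *PDE4B* (8.29% of the genes fitted).

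Together the 4 PDE4 genes summed to 12.6 ± 1.28 TPM in EtOH and 12.8 ± 3.65 TPM in Tet (exact permutation p = 0.9, two-sided). *PDE4D* supplied 70.3, 73.4 and 72.4% of that sum in EtOH and 77.7, 83.0 and 73.4% in Tet. *PDE4B* supplied 28.4, 25.7 and 26.2% in EtOH and 22.2, 16.9 and 25.3% in Tet. All Tet libraries thus lay above all EtOH libraries for the *PDE4D* share and below them for the *PDE4B* share, though Tet replicate 3 and EtOH replicate 2 were nearly equal in the *PDE4D* share. Mean shares were 72.0 ± 1.59% and 78.0 ± 4.81% for *PDE4D* and 26.8 ± 1.41% and 21.5 ± 4.25% for *PDE4B* (exact permutation p = 0.1 for each, two-sided, the smallest that 3 against 3 can give, over 4 shares compared). Without the libraries numbered 2, the sum was 11.9 TPM in EtOH and 10.8 TPM in Tet, the *PDE4D* share 71.3% and 75.5%, and the *PDE4B* share 27.3% and 23.7% (2 libraries a group, no test). The shares add to a fixed total and so are not independent of each other.

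The other genes of the cAMP pathway were read from lists ordered by role. None of their genes passed the test, and the counts below are read against the 10.8% of all genes with an unadjusted p under 0.05. Among 16 of 20 other cyclic nucleotide phosphodiesterases tested, 3 had an unadjusted p under 0.05 and the median log2 fold change was -0.13. The cGMP-specific *PDE5A* (0.15), the cAMP-specific *PDE7A* (-0.23) and *PDE3B* (-0.31), which cGMP inhibits, had the highest levels. The 3 with an unadjusted p under 0.05, named after their values were seen, were *PDE7B*, *PDE3A* and *PDE8A*.

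*PDE7B*, a cAMP-specific enzyme, had 0.390, 0.0720 and 0.693 CPM in EtOH and 2.58, 1.24 and 3.01 CPM in Tet. All Tet libraries lay above all EtOH libraries at these low levels (log2 fold change 2.54, SE 0.66, edgeR adjusted p = 0.194). It passed with no filter on low counts (edgeR adjusted p = 0.0212) and in DESeq2 (adjusted p = 0.00501), so its call depended on the method. Those fits called 302 and 606 genes. *PDE3A* had 53.3, 33.8 and 50.0 CPM in EtOH and 26.1, 35.1 and 23.1 CPM in Tet, overlapping through the libraries numbered 2 (log2 difference -0.70, SE 0.23, edgeR adjusted p = 0.308). Without those 2 libraries the *PDE3A* log2 fold change was -1.07 (edgeR adjusted p = 0.00753), in a fit that called 874 genes against 53 in the main fit. *PDE8A*, another cAMP-specific enzyme, stood at -0.61 (SE 0.23, edgeR adjusted p = 0.385).

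Of 10 adenylyl cyclases, which make cAMP, 8 were tested, with a median log2 fold change of -0.32 and 2 at an unadjusted p under 0.05. The most abundant were *ADCY1* (-0.36), *ADCY7* (-0.27) and *ADCY8* (0.31). The 2 lower ones, named after their values were seen, were *ADCY2* (-1.43, SE 0.49, edgeR adjusted p = 0.328) and the soluble cyclase *ADCY10* (-1.42, SE 0.44, edgeR adjusted p = 0.276), whose groups did not overlap. Among 9 tested subunits and inhibitors of protein kinase A the median was 0.29. *PRKAR1A*, a type I regulatory subunit, stood at 0.20, and the inhibitors *PKIA* and *PKIB* at 0.35 and 0.05. *PRKAR2A*, a type II regulatory subunit named after its value was seen, had 39.7, 55.9 and 45.1 CPM in EtOH and 31.5, 29.5 and 25.1 CPM in Tet (log2 difference -0.71, SE 0.18, edgeR adjusted p = 0.194), and its groups did not overlap.

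Of the other cAMP effectors and CREB factors, 12 of 13 were tested, with a median of 0.16 and 2 at an unadjusted p under 0.05. *BVES*, a cAMP-binding membrane protein, stood at 0.17, *CREB1* at 0.15 and the coactivator *EP300* at 0.23. Among 16 tested partners and anchors of PDE4 the median was -0.08 and 3 had an unadjusted p under 0.05. The anchoring protein *AKAP9*, which tethers protein kinase A and PDE4D3 at the centrosome and Golgi, had 843, 1088 and 959 CPM in EtOH and 1285, 1334 and 1379.9 CPM in Tet. Its groups did not overlap, but it did not pass the test (log2 fold change 0.47, SE 0.15, edgeR adjusted p = 0.300). *AKAP11* (0.10) and *AKAP12* (0.05) were the next in abundance.

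cAMP response genes had a median of 0.25 over 11 of 17 tested, and 1 had an unadjusted p under 0.05. The highest were *PPARGC1A* (0.54), *EGR1* (0.73) and *BDNF* (0.08). The 1, named after its value was seen, was the nuclear receptor gene *NR4A2*, at 2.84, 2.88 and 2.94 CPM in EtOH and 1.38, 1.21 and 0.980 CPM in Tet (log2 difference -1.28, SE 0.29, edgeR adjusted p = 0.142). Its groups did not overlap, and in DESeq2 it passed (adjusted p = 0.00391), in a fit that called 606 genes against 53 in the main fit.

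**Figure D5:**
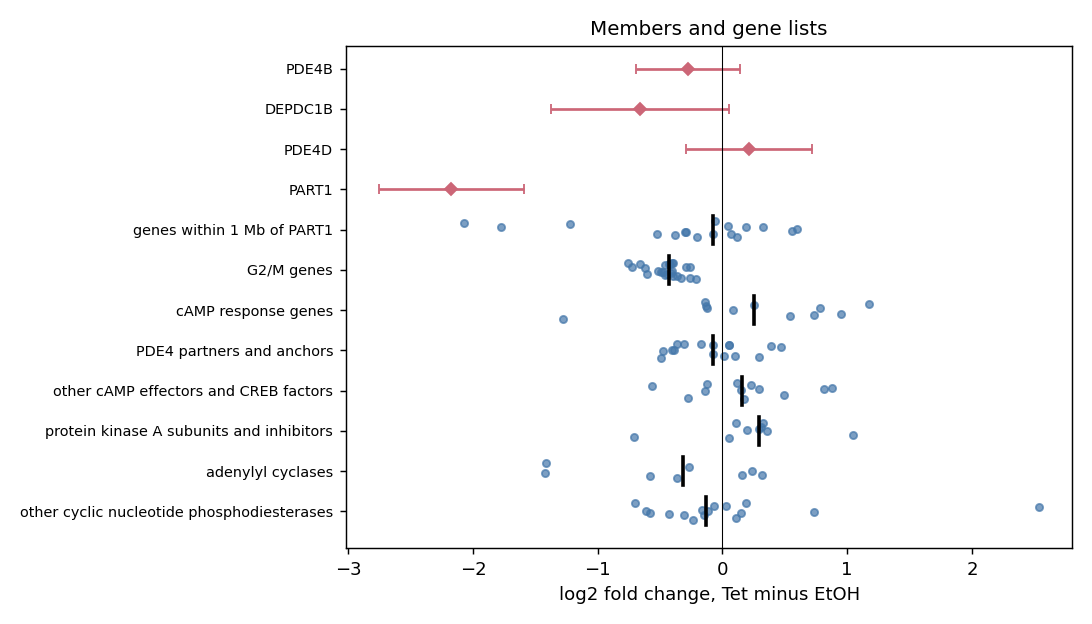
Log2 fold change (Tet minus EtOH) of each tested gene in 8 lists (blue points, black bar at the list median) and of the 4 tested members (red, with the 95% interval of the fit; for *PART1* a description only). The G2 and M genes all lie below 0 with a median of -0.43, and *PART1* (-2.18) lies to the left of every listed gene.

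The genes whose levels over the 6 libraries were most like those of *PART1*, among 10079 others with a mean of at least 5 CPM, were *ZC3H11B* (Pearson r of log2 CPM 0.999), *SLITRK5* (0.998), *GPC4* (0.997), *SLITRK4* (0.996) and *SHC3* (0.996). *SLITRK5* and *SLITRK4* are neuronal membrane proteins, *GPC4* is a cell surface proteoglycan and *SHC3* a neuronal adaptor. Those most like *PDE4D* included *SLC20A2* (0.982), *CRCP* (0.976), *EPB41L3* (0.976) and *SLC23A2* (0.975). With *PART1*, the correlation was 0.91 for *PDE4B*, 0.88 for *PDE4A*, 0.48 for *DEPDC1B*, 0.36 for *PDE4C* and -0.46 for *PDE4D*. These values rest on 6 libraries that share depth, group and the replicates numbered 2, and are a description only.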

How the data were processed

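The deposited tables held estimated counts per gene. The authors aligned reads to GRCh38 with STAR (2.7.1a, per the labels). They counted exons of GENCODE (v30 per the methods) with featureCounts (1.5.1 per the labels, 1.6.4 per the file headers). Reads were split between overlapping genes, so some counts are fractional. The headers show no strand option, whereas the methods name a stranded one. The 6 files were rounded to whole counts. The 92 spike-in rows were all 0 and were left out. Genes passing filterByExpr were fitted with edgeR 4.0.16 (TMM scaling, quasi-likelihood F-test, Tet against EtOH, Benjamini-Hochberg over all 22443 genes) in R 4.3.3. No label gives a batch or separate cultures, so p-values measure only the spread between libraries. TPM used union exon lengths. Limma-voom (limma 3.58.1) and DESeq2 1.42.0 were alternatives. On simulated counts the test recovered 4% of genes changed by 1 on the log2 scale and 67% of those changed by 2.

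Members, gene lists and tests were chosen with earlier results of these data known. Named genes were the 6 members, the 3 tested genes of highest mean TPM in each list, any called, all tested neighbours within 1 Mb, *MYCN*, and the 5 genes most correlated with *PART1* and with *PDE4D* (mean of at least 5 CPM, prior count 2). Others are said to have been named after their values were seen. Some genes and lists that the rule covers are not reported here. Of 135 listed symbols, 134 were found. Locus geometry came from the exon coordinates in the files and GENCODE v44.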

Additional observations from a re-analysis of the deposited data

How the results depend on the processing

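*PART1* stayed between -2.38 and -2.02 on the log2 scale over 17 alternatives, but its adjusted p was not under 0.05 in 5 of the 6 fits that left out 1 library (0.106 to 0.217). *PDE4B* stayed between -0.31 and -0.23, and *DEPDC1B* between -0.90 and -0.28 (adjusted p of 0.0551 to 0.775). *PDE4D* ran from -0.071 to 0.37 and turned negative without replicate 2 (-0.018) and without Tet replicate 2 (-0.071). The *PDE4D* share differed by 3.53 to 8.33 percentage points and the *PDE4B* share by -7.22 to -3.02 over 7 alternatives and by 4.21 and -3.54 without replicate 2, a setting chosen after seeing the data. The small genes in the 5′ part of *PDE4D* were 4.02 to 4.63 times lower over 8 alternatives chosen after seeing the data, and the EtOH to Tet ratio of the rest ran from 0.951 to 1.38.

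The number of genes called over the whole table was 53. It was 302 with no filter, 606 in DESeq2 on the edgeR genes, 499 in DESeq2 on all genes, 675 with the replicate number as a block and 874 without replicate 2. Leaving out 1 library gave 0 to 692 calls: 2 without EtOH replicate 1, 692 without EtOH replicate 2, 1 without EtOH replicate 3, 0 without Tet replicate 1 (1865 at an unadjusted p under 0.05), 1 without Tet replicate 2 and 0 without Tet replicate 3 (2067 at an unadjusted p under 0.05). Of listed genes and neighbours, 0 were called (22 at an unadjusted p under 0.05), against 1 with no filter (*PDE7B*), 3 in either DESeq2 fit (*PDE7B*, *NR4A2* and *AURKA*), 5 with the replicate block (*PDE7B*, *AURKA*, *CCNB1*, *PDE8A* and *PRKAR2A*), 7 without replicate 2 (*PDE3A*, *EGR1*, *RHOB*, *PDE7B*, *AURKA*, *AKAP9* and ENSG00000250461) and 0 to 4 when 1 library was left out, with 4 without EtOH replicate 2 (*RHOB*, *EGR1*, *AURKA* and *PDE3A*). The cause of these shifts was not tested.

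Libraries of the same number were checked for pairing: deviations from the group means correlated by 0.0603, 0.510 and 0.219 for numbers 1, 2 and 3, all positive. No label says that the number pairs libraries, so the main fit did not treat it as pairing them. These values do not exclude a pairing. With the replicate block *PART1* was at -2.20, *PDE4D* at 0.17, *DEPDC1B* at -0.64 and *PDE4B* at -0.28, and none of the last 3 passed. Depth limits *PDE4A* and *PDE4C*, and the small genes inside *PDE4D*, to between 13.5 and 113 counts each over all 6 libraries.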
